A study of Mus musculus with 10 samples.

Results

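Dppa3, Nanos3, Dnd1, Ifitm1, Ifitm2, Ifitm3, Kit and Alpl are 8 genes known as early effectors or surface markers of the germ line. They were taken by name, by Ensembl identifier in the table of the E14Tg2a libraries and by symbol in the table of the R1 libraries, and each was found once in both. They were 8 of 27998 genes in the first table and 8 of 32285 in the second. The study followed mouse embryonic stem cells (ESC) through epiblast-like cells (EpiLC) to embryoid bodies (EB) in which primordial germ cell-like cells (PGCLC) arise, by droplet single-cell RNA-seq with unique molecular identifiers (UMIs, 1 for each captured transcript). The question put to the 8 genes was which were restricted to germ cells and which were shared with the mesoderm of the same EB.

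The E14Tg2a libraries came from 1 wild-type male ESC line and held 2782 cells in 8 libraries. They were ESC kept in 2i+LIF (2i ESC), ESC kept in serum with LIF (S+L ESC), EpiLC after 1, 2 and 3 days with Activin A, bFGF and KSR (d1, d2 and d3 EpiLC), epiblast stem cells (EpiSC), and EB after 2 and 4 days (d2 and d4 EB). EB were made from d2 EpiLC in medium with BMP4, LIF, EGF and SCF, the last being the ligand of the receptor that Kit encodes. The study listed the barcodes of its PGCLC, 91 in the d2 EB and 44 in the d4 EB, which left 446 and 324 other EB cells. The R1 libraries held 3115 cells of d4 EB, 1416 from wild-type R1 ESC (WT) and 1699 from an Mll3/4 dCD line derived from R1, in which the histone methyltransferases MLL3 and MLL4 have lost catalytic activity. Each stage or genotype was 1 library, so a difference between stages cannot be told apart from one between libraries. Every interval below covers counting error only. No p-value is given, because cells of 1 library are not replicates.

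Median depth ran from 11751 UMIs per cell in the dCD library to 36750 in d1 EpiLC, and totals from 8757170 to 22887974 UMIs per library. Levels are given as CPM, the UMIs of a gene per 1000000 UMIs of its group, with exact 95% Poisson intervals. Scrublet called 0.589% to 6.23% of the cells of a library doublets, 8 barcodes occurred in more than 1 E14Tg2a library and 0 in both R1 libraries. Of 10 PGC markers other than the 8 genes, 10 were at least 2-fold higher than in other EB cells on d2 and 9 on d4, and their summed level was 979 against 76.2 CPM on d2 and 1691 against 217 CPM on d4. Of 20 mesoderm markers, 14 were at least 2-fold lower on d2 and 15 on d4, while T and Eomes were higher on d2 and Eomes on d4. The study had named these cells from a cluster with PGC markers that include Prdm1, Prdm14, Tfap2c and Dppa3, so the levels of these genes in listed PGCLC describe how the cells were chosen.

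In the early mouse embryo, BMP signals act on epiblast cells that also give rise to extraembryonic mesoderm, and Prdm1, Prdm14 and Tfap2c encode the transcription factors that set the germ cell fate. Dppa3 (also Stella or PGC7) encodes a protein that protects DNA methylation in the zygote, and Nanos3 and Dnd1 encode RNA-binding proteins needed for primordial germ cells to survive. Ifitm1 (Fragilis2), Ifitm2 and Ifitm3 (Fragilis) encode small interferon-inducible membrane proteins that restrict virus entry. Kit encodes the receptor tyrosine kinase through which migrating germ cells receive SCF, and Alpl encodes the tissue-nonspecific alkaline phosphatase whose activity is the classical stain for ESC and primordial germ cells.

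The Ifitm genes are shown by sequence because they are neighbours on chromosome 7 and yet took different levels below. In GRCm38, Ifitm2 (ENSMUSG00000060591) lies at chr7:140954837-140955987 on the minus strand, Ifitm1 (ENSMUSG00000025491) at chr7:140967221-140969825 on the plus strand and Ifitm3 (ENSMUSG00000025492) at chr7:141009586-141010770 on the minus strand. The 250 bases before each RefSeq start (GRCm38.p6) are at chr7:140967826-140968075 for Ifitm1, chr7:140955962-140956211 for Ifitm2 and chr7:141010745-141010994 for Ifitm3, each written 5′ to 3′ along its gene. These starts lie inside the gene spans given above. Capitals mark the core of an interferon-stimulated response element, which is GAAA repeated after a gap of any 2 bases, searched on both strands with overlaps allowed.
Ifitm1: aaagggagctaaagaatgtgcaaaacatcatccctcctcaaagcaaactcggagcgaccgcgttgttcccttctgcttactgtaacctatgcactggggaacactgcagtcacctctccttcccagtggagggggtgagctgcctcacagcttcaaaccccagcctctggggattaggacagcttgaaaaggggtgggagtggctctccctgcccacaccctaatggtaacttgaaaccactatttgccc
Ifitm2: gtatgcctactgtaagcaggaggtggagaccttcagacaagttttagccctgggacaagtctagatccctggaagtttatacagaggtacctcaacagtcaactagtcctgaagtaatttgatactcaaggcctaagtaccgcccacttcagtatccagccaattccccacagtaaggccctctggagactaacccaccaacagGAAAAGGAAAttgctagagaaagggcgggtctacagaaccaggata
Ifitm3: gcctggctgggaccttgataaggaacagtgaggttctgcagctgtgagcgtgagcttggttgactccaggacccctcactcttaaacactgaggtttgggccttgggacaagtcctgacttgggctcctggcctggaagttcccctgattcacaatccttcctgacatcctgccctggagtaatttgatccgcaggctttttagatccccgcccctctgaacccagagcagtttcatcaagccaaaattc
Ifitm2 carried the motif at -46 from the start and Ifitm3 carried it at 3 and at 20 bases after the start, just past the stretch printed above. No match was found in the Ifitm1 window, which says only that these letters are not there. The 30 bases around each match are shown to compare them.
Ifitm2 at -46: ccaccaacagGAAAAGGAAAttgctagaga
Ifitm3 at 3: caaaattcagGAAAAGGAAActtctgagaa
Ifitm3 at 20: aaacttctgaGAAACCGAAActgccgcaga
The first Ifitm3 match and that of Ifitm2 had the same 10 letters. The motif was in 1131 of 32851 RefSeq promoters of the same length (3.44%), in 2 of the 6 members with a promoter entry and in 9 of the 12 interferon response genes with one. The longest run shared by any pair of the 3 upstream stretches was 11 bases, TGGGACAAGTC, at -200 in Ifitm2 and -147 in Ifitm3. A match is a description of letters and not of binding.

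The other members lie apart from each other, Dppa3 (ENSMUSG00000046323) at chr6:122626410-122630272, Nanos3 (ENSMUSG00000056155) at chr8:84173731-84185217, Dnd1 (ENSMUSG00000044595) at chr18:36763671-36766214, Kit (ENSMUSG00000005672) at chr5:75574916-75656722 and Alpl (ENSMUSG00000028766) at chr4:137741733-137796384. Some rows could share reads with near-identical copies. Of the 50-base words in the last 400 bases of the transcript, 25.4% in Ifitm2, 12.3% in Ifitm3, 11.4% in Dppa3 and 1.99% in Ifitm1 also occurred in another annotated gene, and 0 in Nanos3, Dnd1, Kit and Alpl. Dnd1 overlaps Wdr55 on the opposite strand. How reads were divided was not tested.

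Dppa3 was low in every stage before the EB. It stood at 3.54 CPM in 2i ESC, 5.94 in S+L ESC, 6.46, 2.15 and 0.568 in d1, d2 and d3 EpiLC, and 0.862 in EpiSC. In the d2 EB it reached 102.6 CPM (91.4 to 114.9) in listed PGCLC against 1.62 in other cells, and in the d4 EB 193.4 (167.8 to 221.9) against 2.69. Both PGCLC groups stood apart from each other and from all 8 other groups, whose neighbouring intervals overlapped. The level in PGCLC was 63.3-fold (39.8 to 106.6) that in other cells on d2 and 71.9-fold (46.6 to 116.0) on d4.

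Nanos3 rested on few UMIs in listed PGCLC, 66 on d2 and 22 on d4. It stood at 2.74 CPM in 2i ESC, 2.47 in S+L ESC, 1.09, 0.627 and 0.426 in d1, d2 and d3 EpiLC, and 5.72 in EpiSC. It was 22.5 CPM (17.4 to 28.6) in d2 PGCLC against 1.11 in other d2 cells, and 20.9 CPM (13.1 to 31.6) in d4 PGCLC against 1.29 in other d4 cells. The PGCLC intervals of the 2 days overlapped and lay above EpiSC, which in turn lay above 2i ESC. The level in PGCLC was 20.3-fold (11.1 to 40.1) that in other cells on d2 and 16.2-fold (7.54 to 37.0) on d4.

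Dnd1 was present in ESC and EpiLC, before PGCLC formed. It stood at 6.74 CPM in 2i ESC, 6.83 in S+L ESC, 11.1, 9.23 and 9.23 in d1, d2 and d3 EpiLC, and 0.862 in EpiSC. In the EB it was 169.1 CPM (154.5 to 184.7) in d2 PGCLC against 23.3 in other d2 cells, and 44.6 (32.7 to 59.3) in d4 PGCLC against 6.55 in other d4 cells. The ESC and EpiLC intervals overlapped as neighbours, and other d2 EB cells lay above all of them. The level in PGCLC was 7.26-fold (6.25 to 8.44) that in other cells on d2 and 6.80-fold (4.52 to 10.2) on d4.

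**Figure D1:**
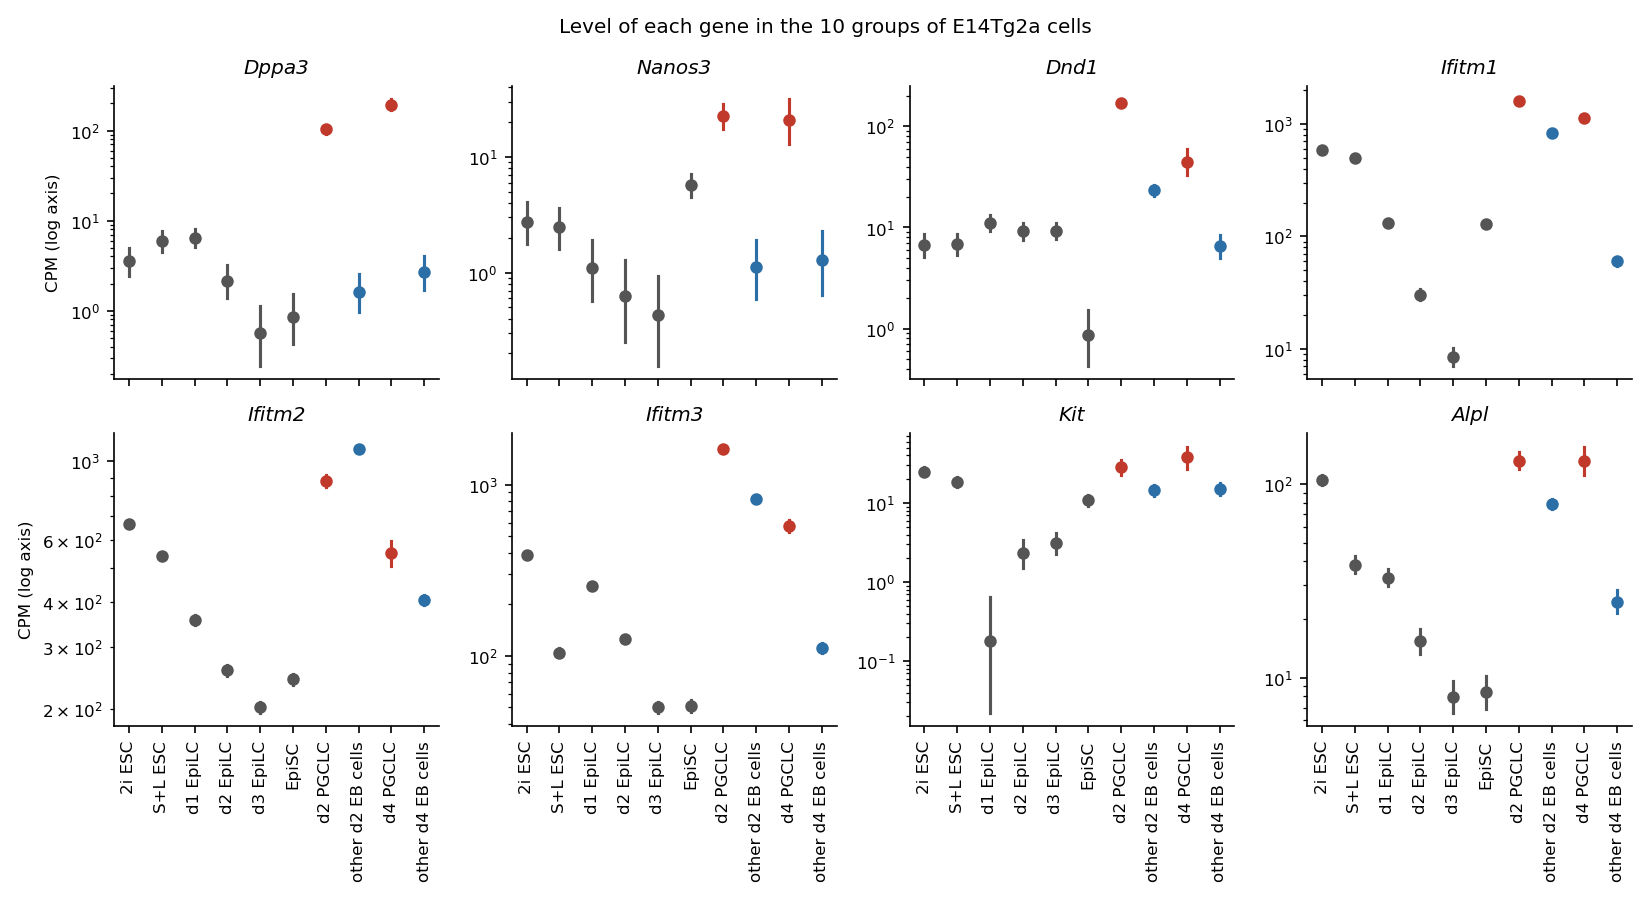
Level of each of the 8 genes in CPM on a log axis, with the 95% Poisson interval, in the 6 ESC, EpiLC and EpiSC libraries and in listed PGCLC and other cells of d2 and d4 EB. In PGCLC of both days, Dppa3, Nanos3, Dnd1 and Ifitm1 have intervals above those of all other groups. Kit and Alpl have their highest values in PGCLC too. Ifitm1, Ifitm2, Ifitm3 and Alpl are also high in the other d2 EB cells and in 2i ESC.

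Ifitm1 was high in ESC and in the d2 EB, both in listed PGCLC and in the sum of the other cells. It stood at 584 CPM in 2i ESC, 497 in S+L ESC, 131, 30.3 and 8.52 in d1, d2 and d3 EpiLC, and 129 in EpiSC. It was 1612 CPM (1567 to 1659) in d2 PGCLC against 832 in other d2 cells, and 1123 (1060 to 1188) in d4 PGCLC against 60.0 in other d4 cells. The gap between PGCLC and the rest thus went from 1.94-fold (1.87 to 2.01) on d2 to 18.7-fold (16.9 to 20.8) on d4, with most of the difference in the cells that were not PGCLC.

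Ifitm2 moved over a narrower range. Its level was 668 CPM in 2i ESC, 541 in S+L ESC, 357, 257 and 202 in d1, d2 and d3 EpiLC, and 243 in EpiSC. On d2 it was lower in PGCLC, at 881 CPM (847 to 915), than in other EB cells, at 1081 (1062 to 1100). On d4 it was higher, at 550.0 CPM (506 to 597) against 406 (393 to 420). The ratio was 0.815 (0.781 to 0.850) on d2 and 1.35 (1.24 to 1.48) on d4.

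Ifitm3 was at its highest in d2 PGCLC. Its level was 387 CPM in 2i ESC, 105 in S+L ESC, 257, 126 and 50.0 in d1, d2 and d3 EpiLC, and 51.1 in EpiSC. It was 1618 CPM (1572 to 1665) in d2 PGCLC against 829 in other d2 cells, and 575 (529.8 to 622) in d4 PGCLC against 111 in other d4 cells. In both kinds of cells the d4 level was the lower, and the ratio of PGCLC to other cells was 1.95 (1.89 to 2.02) on d2 and 5.17 (4.66 to 5.73) on d4.

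Kit was all but absent from d1 EpiLC. It stood at 24.9 CPM in 2i ESC, 18.4 in S+L ESC, 0.182 (2 UMIs), 2.33 and 3.12 in d1, d2 and d3 EpiLC, and 10.8 in EpiSC. It was 28.6 CPM (22.8 to 35.5) in d2 PGCLC against 14.5 in other d2 cells, and 37.9 (27.1 to 51.6) in d4 PGCLC against 15.1 in other d4 cells. The intervals of 2i ESC, d2 PGCLC and d4 PGCLC overlapped as neighbours, and the ratio to other EB cells was 1.97 (1.501 to 2.58) on d2 and 2.51 (1.72 to 3.61) on d4.

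Alpl stood at 105 CPM in 2i ESC, 38.4 in S+L ESC, 32.9, 15.4 and 7.95 in d1, d2 and d3 EpiLC, and 8.39 in EpiSC. It was 132.6 CPM (119.8 to 146.5) in d2 PGCLC against 79.2 in other d2 cells, and 132.7 (111.7 to 156.6) in d4 PGCLC against 24.7 in other d4 cells. The level in PGCLC was the same on both days within its interval, and the level in the rest was the one that differed. The ratio was 1.67 (1.48 to 1.89) on d2 and 5.38 (4.31 to 6.69) on d4.

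Taking 2-fold on the scale of CPM + 1 as the call, 3 of the 8 genes were higher in d2 PGCLC than in other d2 cells, against 6.06% of 12539 genes with at least 10 UMIs over both groups. On d4 the count was 7 of 8, against 8.64% of 12378 genes, with Ifitm2 the exception. No member was called lower on either day, against 10.3% of genes on d2 and 31.3% on d4. With the k-means cluster in place of the listed cells the d2 count was 5. All 8 genes passed the count minimum in these comparisons. The 91 and 44 listed cells had been clustered with all genes by the study, so these counts describe the cells and test nothing.

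To set germ cells against mesoderm, the EB cells were clustered without the 8 genes. This gave 375 unlisted mesoderm-like cells on d2, in a cluster led by Hoxc8, Pitx1 and Hoxc9, and 253 on d4, in a cluster led by Ptn, Pitx1 and Col3a1. Smaller clusters were extraembryonic ectoderm-like, with 59 cells on d2 and 37 on d4, and endothelium-like, with 29 cells on d4. The d4 cluster that held all 44 listed PGCLC also held 5 unlisted cells. It was led by globin genes, yet in the listed d4 PGCLC themselves the 10 endothelium or blood markers summed to 112 CPM, against 752 in other d4 cells, with Tie1 at 0.

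Against the mesoderm-like cells of the same day, Dppa3, Nanos3 and Dnd1 were the restricted members, at least 4-fold higher in listed PGCLC on both days. Dppa3 was 117.7-fold higher (59.0 to 275) on d2 and 79.2-fold (45.3 to 151) on d4, with 0.872 and 2.44 CPM in mesoderm-like cells. Nanos3 was 29.5-fold (13.5 to 76.2) and 18.5-fold (7.28 to 55.8) higher, with 0.763 and 1.13 CPM in mesoderm-like cells. Dnd1 was 8.48-fold (7.14 to 10.1) and 5.27-fold (3.43 to 8.12) higher, with 19.9 and 8.45 CPM there. Its d4 interval included 4-fold. The mesoderm level of Dnd1 on d2 was 2.16-fold that of the d2 EpiLC from which the EB were made, above the level before EB formation. By the 2-fold call, 3 of 8 genes were higher in d2 PGCLC than in d2 mesoderm-like cells, against 7.39% of genes, and 0 were lower, against 9.7%. On d4, 7 were higher, against 11% of genes, and 0 lower, against 30.1%.

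Ifitm2 was the shared member, under 2-fold on both days, with a ratio of 0.694 (0.665 to 0.724) on d2 and 1.06 (0.966 to 1.16) on d4. Its mesoderm-like level was 1269 CPM on d2 and 519.9 on d4. The other 4 members were intermediate, under 2-fold on d2 and above it on d4, though both Kit intervals included 2-fold. Ifitm1 went from 1.70-fold (1.64 to 1.76) to 18.2-fold (16.1 to 20.7), Alpl from 1.58-fold (1.40 to 1.79) to 9.06-fold (6.82 to 12.1), Ifitm3 from 1.75-fold (1.69 to 1.81) to 7.39-fold (6.51 to 8.39), and Kit from 1.68-fold (1.28 to 2.21) to 2.88-fold (1.91 to 4.31). Their mesoderm-like levels on d2 and d4 were 948 and 61.6 CPM for Ifitm1, 83.8 and 14.7 for Alpl, 926 and 77.8 for Ifitm3, and 17.0 and 13.1 for Kit. By the same rule 2.45% of 11092 genes were restricted, 85.1% shared and 12.4% intermediate. Prdm1 (19.3 and 6.45-fold), Prdm14 (12.9 and 207-fold) and Tfap2c (25.8 and 46.4-fold) were restricted as well. Against the 158 other d2 cells with a T UMI, Dnd1 was 3.41-fold higher in PGCLC, under the 4-fold limit. Dppa3 was 43.2-fold and Nanos3 10.7-fold higher. The other d2 cells from which this set was drawn include 12 unlisted cells of the cluster that held most listed d2 PGCLC.

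**Figure D2:**
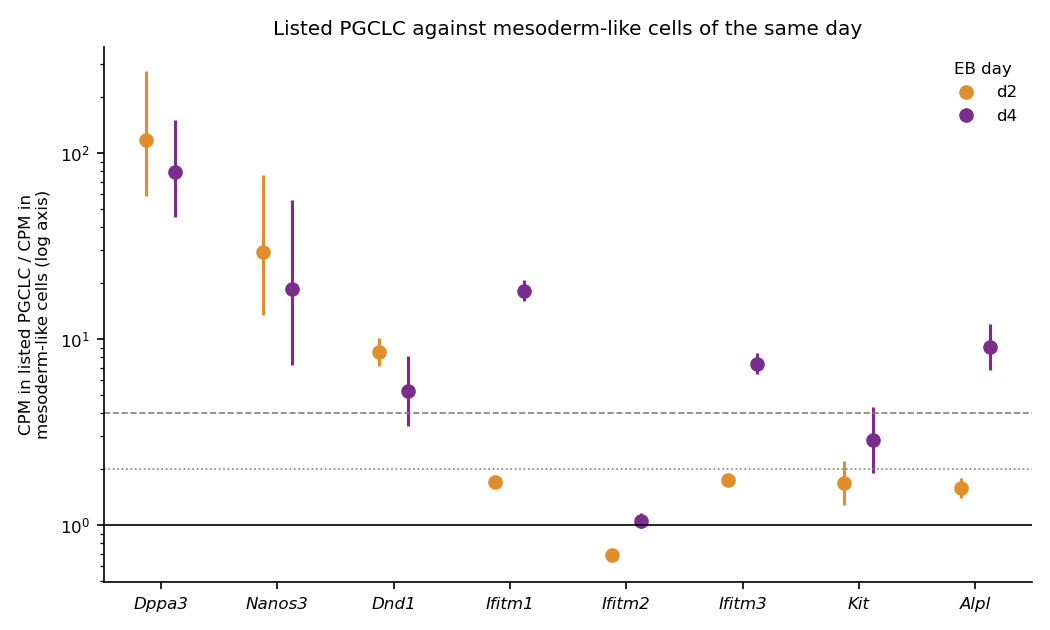
Level in listed PGCLC divided by the level in mesoderm-like cells of the same day, on a log axis, with exact 95% intervals, for d2 and d4 EB. Dppa3, Nanos3 and Dnd1 lie above 4-fold on both days, and Ifitm2 lies below 2-fold on both. Ifitm1, Ifitm3, Kit and Alpl lie below 2-fold on d2 and above it on d4. The Kit intervals include 2-fold on both days, and the d4 interval of Dnd1 includes 4-fold.

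The remaining EB cells differed by gene. Kit was 35.9 CPM in the 29 endothelium-like d4 cells, close to the 37.9 of d4 PGCLC, and Ifitm3 was 299 CPM and Ifitm2 323 CPM there. Alpl was 3.06 CPM in those cells, and 45.3 CPM on d2 and 62.4 on d4 in extraembryonic ectoderm-like cells. In the 59 d2 extraembryonic ectoderm-like cells Ifitm1 was 227 CPM (208 to 247), against 948 in d2 mesoderm-like cells. Dppa3 had 0 UMIs in the endothelium-like cells, which allows up to 2.29 CPM, and 3.88 CPM in d2 extraembryonic ectoderm-like cells. Kit thus stood at a like level in d4 PGCLC and endothelium-like cells, and Alpl was present below its PGCLC level in extraembryonic ectoderm-like cells.

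The members were then followed over the course of differentiation. From 2i ESC to d2 EpiLC, 6 of the 8 genes were lower, against 6.49% of genes. They were Ifitm1 (19.3-fold), Kit (10.7-fold), Alpl (6.84-fold), Nanos3 (4.37-fold), Ifitm3 (3.08-fold) and Ifitm2 (2.60-fold). From d2 EpiLC to d2 PGCLC 8 of 8 were higher, against 9.13% of genes. The ratio was 53.2 for Ifitm1, 47.7 for Dppa3, 35.9 for Nanos3, 18.3 for Dnd1, 12.9 for Ifitm3, 12.3 for Kit, 8.60 for Alpl and 3.42 for Ifitm2. From d2 EpiLC to d2 mesoderm-like cells 6 of 8 were higher, against 14% of genes, with Ifitm1 at 31.3-fold, Ifitm3 at 7.37-fold, Kit at 7.30-fold, Alpl at 5.44-fold, Ifitm2 at 4.93-fold and Dnd1 at 2.16-fold. Dppa3 (0.405-fold) and Nanos3 (1.22-fold) were the members not higher in mesoderm-like cells. These last comparisons share the d2 EpiLC library.

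Set against naive cells, 5 of 8 genes were higher in d2 PGCLC than in 2i ESC, against 16.5% of genes. Dppa3 was 29.0-fold higher, Dnd1 25.1-fold, Nanos3 8.21-fold, Ifitm3 4.18-fold and Ifitm1 2.76-fold. Ifitm2 (1.32-fold), Alpl (1.26-fold) and Kit (1.15-fold, 0.884 to 1.49) differed by less than 2-fold between these groups, and 0 of 8 were lower, against 8.59% of genes.

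Between d2 and d4 PGCLC, 2 of the 8 genes were lower, against 12.5% of genes, and 0 were higher, against 5.98%. Dnd1 was 3.79-fold lower (2.81 to 5.23) and Ifitm3 2.82-fold lower (2.59 to 3.07). Dppa3 was 1.88-fold higher (1.57 to 2.26), and the intervals of Nanos3 (0.927, 0.545 to 1.52), Kit (1.32, 0.885 to 1.95) and Alpl (1.001, 0.819 to 1.22) all included 1. Ifitm1 and Ifitm2 stood at 0.696 and 0.625 of their d2 level. In other EB cells 5 of 8 were lower on d4, against 4.17% of genes: Ifitm1 was 13.9-fold lower, Ifitm3 7.45-fold, Dnd1 3.56-fold, Alpl 3.21-fold and Ifitm2 2.66-fold. In mesoderm-like cells the same 5 were lower, against 6.72% of genes, with Ifitm1 15.4-fold, Ifitm3 11.9-fold and Alpl 5.72-fold lower. Fewer cells with a transcript and fewer transcripts per cell cannot be told apart in these sums, and the counts in single cells follow.

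In single listed PGCLC the members differed in how evenly they were found. Ifitm1, Ifitm2 and Ifitm3 had a UMI in 90, 90 and 91 of the 91 d2 cells and in 44, 44 and 43 of the 44 d4 cells. Alpl had one in 86 and 42 cells, Dnd1 in 78 and 21, Dppa3 in 50 and 28, Kit in 49 and 19, and Nanos3 in 34 and 15. In mesoderm-like cells the share with a UMI was 2.13% for Dppa3, 1.87% for Nanos3, 27.5% for Dnd1 and 76.3% for Alpl on d2, at a median of 23113 UMIs per cell against 29664 in d2 PGCLC. The share that free RNA would give was not measured for any of these genes.

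Dppa3, Nanos3 and, on d4, Dnd1 and Kit had much of their UMIs in a few cells. Dppa3 ranged from 0 to 29 UMIs in a d2 PGCLC, with a median of 1, and 9 cells of 91 held 49.2% of its UMIs. In d4 PGCLC it ranged from 0 to 26, with a median of 1.5, and 4 cells of 44 held 45.1%. The same cell numbers held 53.0% of Nanos3 UMIs on d2 and 45.5% on d4, and on d4 44.7% of Dnd1 and 47.5% of Kit. Such a share also rises by counting alone where a gene has few UMIs per cell. The mean was 0.725 on d2 and 0.5 on d4 for Nanos3, and on d4 1.07 for Dnd1 and 0.909 for Kit. How much of each share counting alone would give was not tested. On d2 Dnd1 had a mean of 5.45, from 0 to 20 UMIs with a median of 4, and 28.8% of its UMIs in the top 9 cells. Ifitm3 ranged from 2 to 122 UMIs on d2, with a median of 43 and 20.4% in the top 9 cells. The variance over the mean, which grows with the level of a gene, was 8.97 for Dppa3, 4.75 for Dnd1, 23.9 for Ifitm1 and 17.0 for Ifitm3 on d2.

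**Figure D3:**
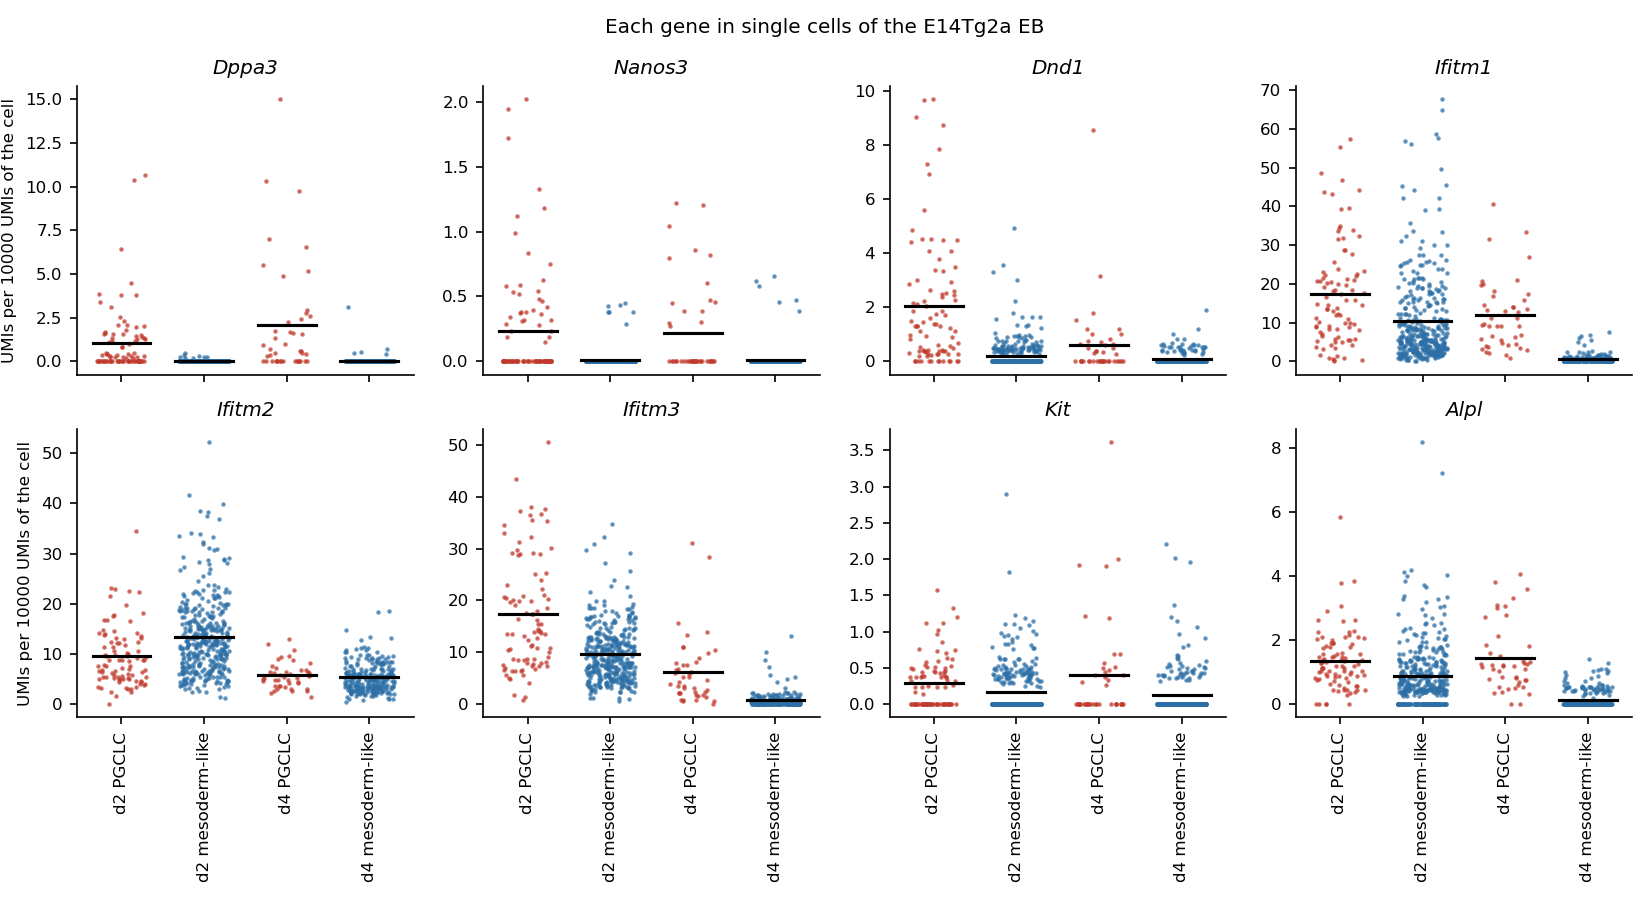
UMIs of each gene per 10000 UMIs of the cell, 1 point a cell, in listed PGCLC (red) and mesoderm-like cells (blue) of d2 and d4 EB, with the mean of the cells as a black line. Dppa3 and Nanos3 are at 0 in nearly all mesoderm-like cells and in part of the PGCLC, whereas Ifitm1, Ifitm2 and Ifitm3 fill both groups on d2.

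Of the restricted genes Dppa3, Nanos3 and Dnd1, at least 2 were detected together in 53 of 91 d2 PGCLC (58.2%, 47.4 to 68.5, Clopper-Pearson) and 23 of 44 d4 PGCLC (52.3%, 36.7 to 67.5). The full set was found in 25 d2 cells (27.5%) and 5 d4 cells (11.4%). In mesoderm-like cells at least 2 were found in 7 of 375 cells on d2 (1.87%) and 1 of 253 on d4 (0.395%). The genes were called restricted from these same cells, and Dppa3 helped to name the PGCLC. This contrast therefore restates that choice and tests nothing. After each cell was thinned to 15374 UMIs, leaving out 0 d2 and 6 d4 PGCLC, the shares were 44.0% and 39.5% in PGCLC and 0.554% and 0.446% in mesoderm-like cells. In d2 PGCLC Nanos3 was detected in 25 of the 50 cells with Dppa3 and in 9 of the 41 without it. The cells with Dppa3 were also the deeper ones, with a median of 34112 against 24425 UMIs. After thinning the counts were 12 of 44 (27.3%) with Dppa3 and 9 of 47 (19.15%) without it, and the CPM ratio of Nanos3 between cells with and without Dppa3 was 1.26 (0.745 to 2.20), an interval that includes 1.

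**Figure D4:**
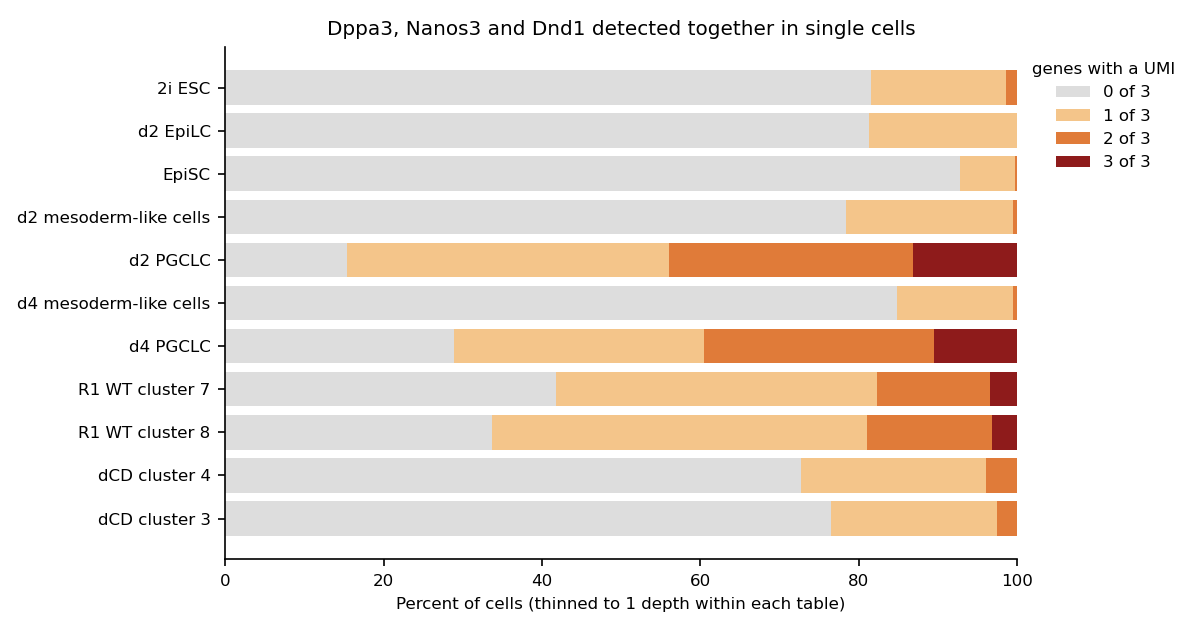
Percent of cells in which 0, 1, 2 or 3 of Dppa3, Nanos3 and Dnd1 had a UMI, after thinning to 1 depth within each table. Among the groups drawn, listed PGCLC and R1 WT clusters 7 and 8 hold the largest shares with 2 or more, and mesoderm-like cells under 1%. The genes were called restricted from the same listed PGCLC and mesoderm-like cells.

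On d4, listed PGCLC with a Dppa3 UMI had more Ifitm1, Ifitm3, Alpl and Kit than those without. Ifitm2 was 1.30-fold higher (1.09 to 1.56), while the intervals of Nanos3 (0.852 to 10.5) and Dnd1 (0.542 to 1.96) included 1. Ifitm1 was 1354 against 719.7 CPM (1.88-fold, 1.64 to 2.16), Ifitm3 714 against 333 CPM (2.15-fold, 1.76 to 2.63), Alpl 154 against 96.1 CPM (1.60-fold, 1.09 to 2.40) and Kit 49.3 against 18.2 CPM (2.71-fold, 1.18 to 7.26). The 28 cells with and 16 without Dppa3 had like depth, with medians of 23915 and 25750 UMIs, and Nanog was 179 CPM in both. On d2 the same ratios were 1.10 (1.04 to 1.17) for Ifitm1, 1.21 (1.14 to 1.28) for Ifitm3, 0.928 (0.756 to 1.14) for Alpl and 1.22 (0.765 to 1.97) for Kit. Whether the days differ was not tested.

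T, the primitive streak factor that marks nascent mesoderm, was detected in 61 of the 91 d2 PGCLC. In these cells 2 of the 8 genes were higher than in the 30 cells without T, against 8.34% of genes, and 0 were lower, against 5.55%. Kit was 2.38-fold higher (1.31 to 4.69) and Dnd1 2.05-fold (1.62 to 2.61), at 200.2 against 97.7 CPM. Dppa3 went the other way, at 83.7 CPM with T and 146 without it (0.574, 0.454 to 0.726), and Ifitm1 was 1.504-fold higher (1.40 to 1.61). Among other d2 EB cells, Dnd1 was 49.6 CPM in the 158 cells with T and 10.7 in the 288 without. These other cells include 12 unlisted cells of the cluster that held most listed d2 PGCLC, in which Dnd1 was high. How many of those 12 cells had T was not examined. Cells with T were the deeper PGCLC, with medians of 32073 against 26336 UMIs, and this choice of cells was made after the data were seen.

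The transcription factors of the germ line, listed beside the members, were higher in listed PGCLC on both days, 3 of 3, against 6.06% of genes on d2 and 8.64% on d4. The study named the PGCLC cluster with these factors too, so this is not independent of how the cells were chosen. Prdm1 was 48.4 CPM in d2 PGCLC and 21.8 in d4 PGCLC, Prdm14 22.5 and 38.9, and Tfap2c 90.01 and 87.2. Of 15 relatives and partners of the members, 10 could be compared on d2. Dppa2, Dppa4, Dppa5a and Ifitm7 (2.05 against 0.427 CPM) were higher in PGCLC, and Pdgfra, Kdr and Ifitm10 lower. Dppa5a was 2666 CPM in d2 PGCLC, 410 in d2 mesoderm-like cells, 5025 in d4 PGCLC and 34.0 in d4 mesoderm-like cells. On d4, 8 could be compared, with Nanos1, Dppa2, Dppa4 and Dppa5a higher and Ifitm10, Kitl, Pdgfra and Kdr lower.

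Relatives of the members did not all follow them. Ifitm10 had 0 UMIs in listed PGCLC on both days and was 6.98 CPM in d2 and 24.0 CPM in d4 mesoderm-like cells, the reverse of Ifitm1. Ifitm5 and Ifitm6 were at or under 1.36 CPM in these groups. Nanos2, which acts later in male germ cells, and the other alkaline phosphatase genes Alppl2, Alpi and Akp3 had 0 UMIs in them. Kitl, which encodes the ligand of Kit, was 5.11 CPM in d2 PGCLC and 11.01 in d2 mesoderm-like cells, and 0.948 CPM (1 UMI) in d4 PGCLC against 19.9 in d4 mesoderm-like cells.

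Interferon response genes were compared because the Ifitm genes answer to interferon. In d2 mesoderm-like cells 9 of 13 were higher than in d2 EpiLC, against 14% of genes, and 1 lower, against 13.7%. Among them Isg15 was 0.896 CPM in d2 EpiLC, 45.3 in d2 PGCLC and 56.3 in d2 mesoderm-like cells, and then 0.948 and 7.33 in the corresponding d4 cells. Between listed PGCLC and other d2 cells 0 of 13 were higher, against 6.06% of genes, and 1, Usp18, lower, against 10.3%. From d2 to d4, 7 of 13 were lower in mesoderm-like cells, against 6.72% of genes. Bst2 was the one higher in d4 PGCLC than in other d4 cells, at 74.0 against 35.6 CPM. Mx1 had 0 UMIs in the E14Tg2a groups. Levels of the other interferon genes were low, at most 15.6 CPM in each of these groups. Later germ cell genes were low as well: on d2 Dazl (3.07 against 0.171 CPM) and Mael (4.09 against 1.11) were higher in PGCLC, 2 of 4 against 6.06% of genes, and on d4 Dazl (10.4 against 0.819) and Sycp3 (25.6 against 1.40) were higher and Ddx4 (0.948 against 3.39) lower.

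Over the 10 E14Tg2a groups, the gene most like each member by Pearson r of log2(CPM + 1), among 9383 genes with enough UMIs, was Atg13 for Dppa3 (0.94), Prdm1 for Nanos3 (0.93), Gm12216 for Dnd1 (0.94), Mccc1 for Ifitm1 (0.92), Cdx1 for Ifitm2 (0.95), Alpl for Ifitm3 (0.92), H2afy for Kit (0.92) and Bckdha for Alpl (0.94). The next were Phf3 and Gstm3 for Dppa3, Phkg2 and Rps12-ps3 for Nanos3, Ddhd2 and a gene given without a symbol for Dnd1, Pex13 and Mov10 for Ifitm1, Cyp2s1 and Ctdsp2 for Ifitm2, Idh3g and Bckdha for Ifitm3, Amacr and Stam for Kit, and Mov10 and Zfp292 for Alpl. Among the members themselves, Ifitm1, Ifitm2, Ifitm3 and Alpl had r between 0.81 and 0.92 with each other, and Kit and Dnd1 had 0.32. The 10 points share libraries in pairs for the EB, and the values are a description.

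In R1 d4 EB, the dCD library differed from WT by at least 2-fold in 1 of the 8 genes, against 6.31% of genes higher and 3.68% lower. Alpl was 101.0 CPM in dCD and 41.6 in WT, a ratio of 2.43 (2.24 to 2.63). Nanos3 was 7.51 CPM in dCD and 15.7 in WT (0.479, 0.396 to 0.578), just short of the call on the scale of CPM + 1. Dppa3 was 18.7 and 20.4 CPM (0.914, 0.797 to 1.05), Dnd1 16.6 and 15.1 (1.11, 0.949 to 1.29) and Kit 30.7 and 31.9 (0.964, 0.865 to 1.07), and all 3 intervals included 1. Ifitm1 (1.39), Ifitm2 (1.18) and Ifitm3 (1.48) were higher by less than 2-fold. Dppa3 had a UMI in 84 of 1416 WT cells (5.93%) and 115 of 1699 dCD cells (6.77%). A whole-library level mixes how many cells carry a gene with how much each carries, and these cannot be told apart in it.

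The cells that held the transcripts were not the same in the 2 libraries. Seurat clusters made without the 8 genes gave 10 clusters, of which only 1 and 6 held over 100 cells of both genotypes. Cluster 7, with 182 WT and 10 dCD cells, was taken as PGC-like. It had 9 of 10 PGC markers at least 2-fold higher, Prdm1 included, although Prdm1 itself was higher in WT cluster 8. Cluster 8, with 99 WT and 4 dCD cells, was led by Lefty1, Igfbpl1 and Fgf8, with T, Dnd1 and Prdm1 among its 10 leading genes. It had Prdm1, Prdm14 and Tfap2c at least 2-fold higher, 3 of 10 PGC markers, and stayed unnamed. Cluster 4, with 3 WT and 453 dCD cells, had 9 of 10 PGC markers without Prdm1 and was led by Fam25c, Gm13580 and Ooep. Cluster 3, with 6 WT and 461 dCD cells, was led by the globin genes Hba-x, Hbb-y and Hbb-bh1. With 1 library for each genotype, a cluster made of 1 genotype cannot be told apart from a feature of that library.

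In WT, cluster 7 held 88.1% of the Dppa3 UMIs and cluster 8 held 10.95%. Nanos3 had 75.2% and 16.7% there, and Dnd1 27.1% and 51.6%. In dCD, cluster 4, with 26.7% of the cells, held 63.2% of Dppa3 UMIs, and the 10 cells of cluster 7, with 0.589%, held 15.5%. Cluster 3 held 18.7%, less than its 27.1% of the cells. For Nanos3 clusters 4 and 3 held 59.3% and 19.2%, and for Dnd1 37.5% and 38.1%. Alpl, the member that was higher in dCD, had 60.5% of its dCD UMIs in cluster 4 and 26.2% in cluster 3, and in WT 48.4% in cluster 7 and 22.1% in cluster 8. The 10 dCD cells of cluster 7 had 301 CPM of Dppa3 and 602 of Ifitm3. These were 2 of 8 genes called higher than in the WT cells of cluster 7, against 10.2%. The highest of these dCD cells held 26 of the 66 Dppa3 UMIs and, for Ifitm3, 38 of the 132. Dnd1 was 9.12 CPM there (2 UMIs), 1 of 8 called lower, against 13.2%. The Dnd1 ratio was 0.323 (0.0385 to 1.20), an interval that includes 1, at a level under the 13.7 CPM that 3 counts give in these cells. Kit had 64.7% of its dCD UMIs in cluster 4 and 34.1% and 29.9% of its WT UMIs in clusters 7 and 8.

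**Figure D5:**
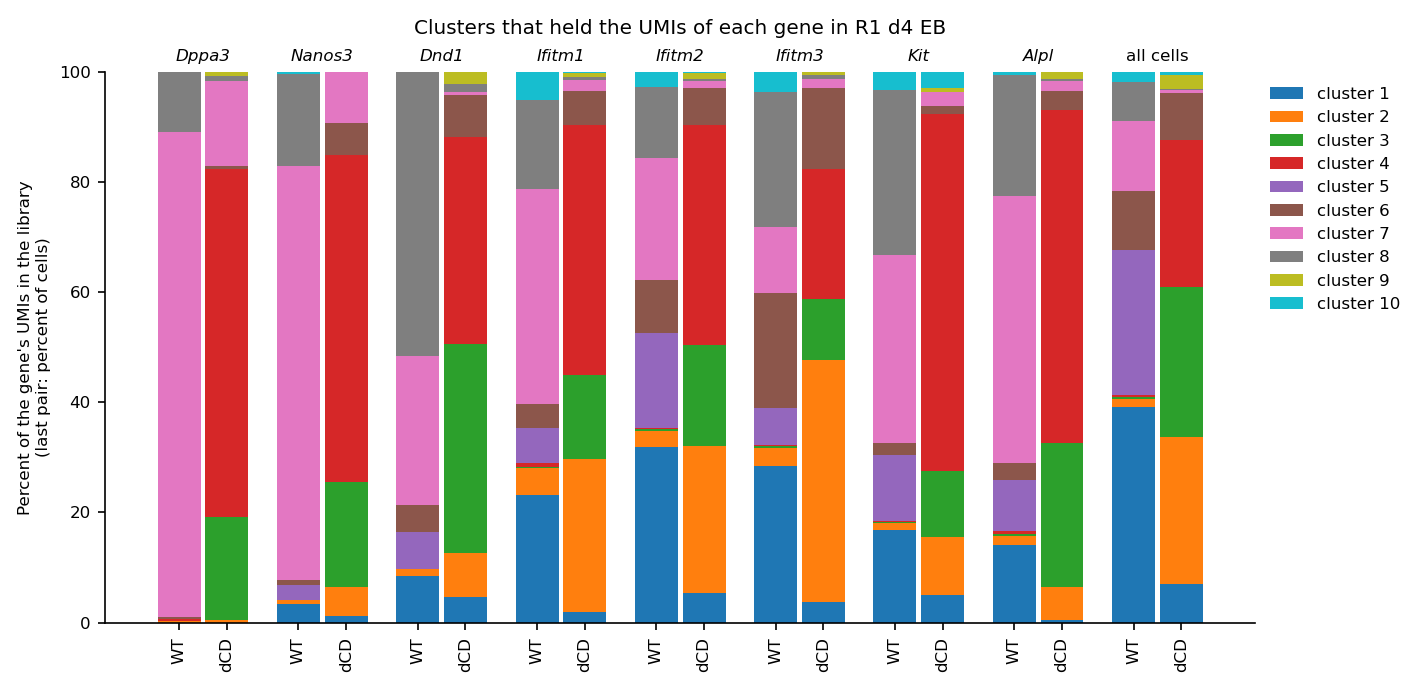
Percent of the UMIs of each gene that lay in each cluster of R1 d4 EB, WT and dCD side by side, with the percent of cells last. Dppa3 and Nanos3 lie in clusters 7 and 8 in WT and mainly in clusters 4 and 3 in dCD, while Ifitm2 and Ifitm3 are spread over more clusters.

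The levels in these clusters were compared with E14Tg2a only as values side by side, since the tables were made with different reagent kits. In WT cluster 7 Dppa3 was 124 CPM, Nanos3 81.7, Dnd1 28.2, Ifitm1 702, Ifitm2 571, Ifitm3 209, Kit 75.3 and Alpl 139. In WT cluster 8 Dnd1 (119 CPM), Ifitm3 (939) and Kit (146) were higher, Dppa3 (34.3) and Nanos3 (40.2) lower and Alpl (141) alike. Clusters 8 and 7 differed in Dnd1 by 4.22-fold (3.22 to 5.57), against 9.31% of genes higher, and in Dppa3 by 3.63-fold (2.67 to 5.04) in the other direction, against 11.3% lower. Prdm1 was 84.2 CPM and T 43.2 CPM in WT cluster 8, and 26.6 and 0.336 in WT cluster 7, whereas Dppa5a was 171 and 4212 and Klf4, a naive pluripotency factor, 4.47 and 145. In the mesoderm-like WT cluster 5 Dppa3 had 0 UMIs in 373 cells, which allows up to 0.612 CPM, Nanos3 was 1.84 CPM, Dnd1 4.28, Ifitm1 70.3, Ifitm3 70.3, Kit 16.1 and Alpl 16.3, while Ifitm2 was 267. WT cluster 1 had 9 of 20 mesoderm and 6 of 10 endothelium or blood markers at least 2-fold higher and stayed unnamed. There Dppa3 had 0 UMIs, Nanos3 was 1.52 CPM, Dnd1 3.58, Ifitm1 171, Ifitm2 338, Kit 15.2 and Alpl 16.5, and Ifitm3 was 203 CPM beside 209 in cluster 7.

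WT PGC-like cells were higher than other WT cells in 6 of the 8 genes, against 9.39% of genes, and lower by 2-fold in 0, against 24.1%. The ratio was 43.8 (32.5 to 60.1) for Dppa3, 17.98 (13.9 to 23.4) for Nanos3, 5.56 (4.85 to 6.37) for Alpl, 3.81 (3.60 to 4.02) for Ifitm1, 3.07 (2.60 to 3.62) for Kit and 2.20 (1.69 to 2.84) for Dnd1. Ifitm2 was 1.68 (1.59 to 1.78), and Ifitm3 was lower in the PGC-like cells, at 0.811 (0.745 to 0.882). The other WT cells include cluster 8, whose levels are given above. Against WT cells outside both clusters, chosen after cluster 8 was seen, the log2 ratio of Ifitm3 was 0.05 instead of -0.30, and with cells that had at least 2 of Prdm1, Prdm14 and Tfap2c taken as the PGC-like cells it was 1.43, so its direction turned with the cells chosen. Under the same 2 alternatives the log2 ratio of Dnd1 was 2.53 and 2.92 instead of 1.08, and that of Kit 2.30 and 2.53 instead of 1.58.

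Between dCD cluster 4 and WT PGC-like cells, Dppa3 was 38.4 and 124 CPM (3.23-fold lower, 2.76 to 3.80) and Nanos3 14.5 and 81.7 (5.62-fold lower, 4.44 to 7.16), 2 of 8 genes against 2.74% of genes. None of the 8 was 2-fold higher in cluster 4, against 9.08% of genes. Alpl was 199 and 139 CPM (1.43-fold, 1.28 to 1.60), and Ifitm2 differed by 1.002-fold (0.947 to 1.06). In cells with at least 2 of Prdm1, Prdm14 and Tfap2c, 119 in each library and a choice made after the data were seen, Nanos3 was 3.04-fold lower in dCD (2.16 to 4.34) and Dnd1 3.21-fold lower (2.33 to 4.47), again 2 of 8 against 5.34% of genes. In those cells Dppa3 was 0.537 of its WT level (0.433 to 0.665) and Alpl 1.27-fold (1.10 to 1.47). Once cells were thinned to 6831 UMIs, 2 or more of the restricted genes had a UMI in 17.7% of WT cluster 7, 18.9% of WT cluster 8, 3.89% of dCD cluster 4, 2.5% of dCD cluster 3 and 2 of the 9 dCD cells of cluster 7 (22.2%, 2.81 to 60.0).

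Within clusters that both genotypes filled, Alpl was 3.24-fold higher in dCD (2.07 to 5.21) in the extraembryonic ectoderm-like cluster 6, at 27.0 against 8.33 CPM. There Ifitm1 was 2.40-fold higher (2.05 to 2.81) and Nanos3 3.60-fold (0.927 to 20.4). With Alpl these were 3 of 7 genes compared, against 8.46% of genes, and 0 were lower, against 3.17%. Nanos3 rested on 10 dCD and 3 WT UMIs in cluster 6, and its interval included 1. In cluster 1, led by Ctla2a, Cdh5 and Col3a1, Alpl was lower, at 7.46 against 16.5 CPM, and Dnd1 higher, at 12.2 against 3.58 CPM, 1 of 7 in each direction against 4.9% lower and 5.07% higher. Later germ cell genes, listed beside the members, were higher in the dCD library in 5 of 6 cases, against 6.31% of genes, among them Dazl at 27.0 against 2.72 CPM and Ddx4 at 12.1 against 1.21 CPM. Prdm1 and Tfap2c were at 0.955 and 1.05 of their WT level. With Prdm14, 0 of the 3 germ line factors were called higher, against 6.31% of genes, and 0 lower, against 3.68%.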

How the data were processed

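Single-cell RNA-seq UMI counts were deposited by the authors as 2 gene-by-cell tables, and these counts were used as deposited. Per the labels and the study's methods, the 8 E14Tg2a libraries (v2 3′ kit) were processed with Cell Ranger on mm10 and aggregated after being brought to equal mapped reads per cell, which lowers the counts of the deeper libraries. The R1 libraries (v3 kit) kept cells with at least 2000 expressed genes, and their counting tool is not given in the sources used here. Columns of values not used numbered 0.

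Libraries were told apart by barcode suffix, and listed PGCLC by the barcodes in the study's supplement. CPM was the sum of a gene's UMIs in a group over the sum of all UMIs there, with exact Poisson intervals, and ratios had exact conditional intervals, all at 95%. These cover counting error only. Depth per library is given in the text above. A gene was compared with at least 10 UMIs over both groups and called at 2-fold on the scale of CPM + 1, and this was no test. Restricted meant at least 4-fold above mesoderm-like cells on both days, shared under 2-fold on both, and intermediate the rest. A count of 0 was read as allowing 3 counts. E14Tg2a EB were clustered by k-means (3 clusters on d2, 4 on d4, 20 components of 2000 genes) and R1 by Seurat (10 components, resolution 0.3), both without the 8 genes. Clusters were named from marker lists, in E14Tg2a by the highest median fold of a list. The R1 PGC-like cluster had instead to have most of the PGC markers, Prdm1 included, at least 2-fold higher. Among such clusters the highest Prdm1 level was to decide, but only cluster 7 met the requirement. Cluster 8 had more Prdm1 in WT but too few of the markers, and cluster 4 lacked Prdm1 among its raised markers. By median fold of the PGC markers, R1 cluster 4 (5.46) stood above cluster 7 (4.11). Doublets were called with Scrublet and kept. Single-cell shares were also taken after thinning to 15374 UMIs per cell (E14Tg2a) and 6831 (R1). The count method was tested on simulated data for d2 PGCLC over other d2 EB cells with 27998 genes, where 188 of 200 genes changed by 4-fold were recovered within 0.5 on the log2 scale and 95.4% of intervals covered the true ratio.

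The members and companion lists were chosen with earlier results of these data known. Genes named were the 8 members, every gene of the companion lists, the 3 genes of highest Pearson r with each member over the 10 E14Tg2a groups (at least 50 UMIs, and 10 CPM in 1 group), and the leading genes and markers of clusters. One gene of the companion lists is not reported here. Nanog, Sox2, Klf4 and T were looked at beside them after values were seen. Alternatives were other pseudocounts, minima, totals, cell sets, thresholds and cluster resolutions. Software was Python 3.11.15, numpy 2.4.6, scipy 1.17.1, pandas 2.3.3, scikit-learn 1.9.0, scanpy 1.11.5, matplotlib 3.10.9, R 4.3.3, Seurat 5.3.0 and Matrix 1.6.5. Promoter sequences were those of RefSeq on GRCm38.p6, matched by symbol for 6 of the 8 members.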

Additional observations from a re-analysis of the deposited data

Results flagged for a closer look

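Ifitm2 went in opposite directions on the 2 days. Its level in listed PGCLC was 0.815 (0.781 to 0.850) of that in other EB cells on d2 and 1.35 (1.24 to 1.48) of it on d4, and the direction on each day held under all 7 alternatives run. Whether the 2 ratios differ was not tested, since each day was 1 library.

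Ifitm3 went in opposite directions in the 2 lines. In E14Tg2a d4 EB its level in listed PGCLC was 5.17-fold (4.66 to 5.73) that in other cells, and in R1 WT d4 EB it was 0.811 (0.745 to 0.882) in PGC-like cells. The R1 direction held at both other cluster resolutions, which kept the same WT cells in the cluster, and turned in the other 2 alternatives: the log2 ratio went from -0.30 to 1.43 with cells that had at least 2 of Prdm1, Prdm14 and Tfap2c as the PGC-like cells, and to 0.05 when WT cluster 8 was left out of the other cells. The last was chosen after the data were seen. The difference between lines was not tested, and line, reagent kit and the way PGCLC were chosen cannot be told apart in it.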

How the results depend on the processing

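Counts of members under other settings were within 1.5 times the value given in 55 of 60 cases. With the k-means cluster in place of the listed d2 PGCLC, 5 genes and not 3 were 2-fold higher than in other d2 cells. With the mean over cells, and with a pseudocount of 0.1 CPM, 1 gene and not 0 was 2-fold lower in the dCD than in the WT library, Nanos3 in both. Against other EB cells with a T UMI in place of mesoderm-like cells, 0 genes and not 3 were restricted and 3 and not 1 were shared, with 158 such cells on d2 and 2 on d4. Dnd1 was under 4-fold already on d2, and Dppa3 and Nanos3 were under it only on d4. On d4 the ratio of PGCLC to those 2 cells was 3.81 for Dppa3, 0.411 for Nanos3 and 0.877 for Dnd1. The 2 cells thus held transcripts of the restricted genes themselves and cannot stand for mesoderm. At 8-fold for restricted, Dnd1 became intermediate. Of 208 log2 ratios, 172 moved by less than their interval. Of 56 shares of cells, 40 moved under thinning. Among these 208 log2 ratios, no called one changed direction. The ratios to EB cells with a T UMI were not among them, and there Nanos3 and Dnd1 fell below 1 on d4. No paired analysis was possible because each condition was 1 library and no replicate numbers were shared. Nanos3 in d4 PGCLC (22 UMIs) and Kit (40 UMIs) are limited by depth, and leaving out a replicate could not be done. Whether any difference would recur in another library was not tested.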

Other observations

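A few groups of cells outside the comparisons also held members. The 12 unlisted d2 cells of the k-means cluster that held most listed d2 PGCLC had 332 CPM of Dnd1 and 2361 of Ifitm1 but 8.98 of Dppa3. Dppa3 was detected in 22 of 227 2i ESC (9.69%), at a median of 33971 UMIs per cell. In d1 EpiLC, at least 2 of Dppa3, Nanos3 and Dnd1 had a UMI in 20 of 280 cells (7.14%, 4.42 to 10.8), which came to 1.87% (0.611 to 4.32) after thinning. In the R1 table, WT cluster 10, endoderm-like and of 26 cells, had 47.0 CPM of Kit, and dCD cluster 2 had 750.1 CPM of Ifitm3, 43.8% of its UMIs in the dCD library.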
